A study of Mus musculus with 20 samples.

Results

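The collagen family genes of the mouse utricle are described here. They were taken as all genes of the deposited tables whose name has the form of a collagen chain gene (Col, a type number, a and a chain number), which gave 44 of 25655 genes. By structural class 11 are fibrillar, 6 are basement membrane (type IV) and 27 belong to other classes. The other classes were 9 fibril-associated, 6 microfibrillar type VI, 4 short-chain and anchoring, 4 transmembrane, 2 multiplexin and 2 further genes. The utricle is the gravity organ of the inner ear, and the study asked how estrogen loss and hormonal therapy act on it. Female C57BL/6J mice were sham-operated or ovariectomized (OVX) at 8 weeks of age and studied 4 weeks after the operation. The sham + v and OVX + v groups carried a vehicle pellet, the OVX + E2 group a pellet of 50 µg of estradiol for 60 days, and the OVX + RAL group a pellet of 2.4 mg of raloxifene for 60 days. Each group had 5 libraries, named here by the replicate numbers 1 to 20 of the labels, prepared from 1 ng of input RNA by a method that sequences the 3′ ends of mRNA. The labels do not say whether the libraries of a group are separate animals, so the p-values measure the spread between these libraries, which may in part be technical.

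Collagens are proteins of the extracellular matrix whose triple helix is built of repeats of 3 residues, each beginning with glycine. Fibrillar collagens (types I, II, III, V, XI, XXIV and XXVII) assemble into fibrils, type IV collagens form the network of basement membranes, and fibril-associated collagens such as type IX sit on fibril surfaces. Types II, IX and XI form the heterotypic fibrils of cartilage and also occur in the acellular membranes of the inner ear, while types I, III and V make up the fibrils of loose and dense connective tissue.

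The triple helix can be read in the exons of the genes. Of 625 internal coding exons of the fibrillar genes, 84.0% had a length that is a multiple of 9 bases, the length of 1 glycine-led triplet of codons, and 48.8% had exactly 54 bases. The shares were 47.2% and 4.23% of 284 exons in the basement membrane genes, and 56.2% and 15.2% of 1002 exons in the other classes. For all other protein-coding genes of the table they were 13.6% and 0.428% of 155803 exons. The canonical transcripts of GENCODE vM39 on GRCm39, the genome build of the deposited tables, were used, and all 44 genes matched. For the 4 collagen genes with the highest level in the utricle, the first exon of 54 bases is shown that starts on a whole codon and opens each of its 6 triplets of codons with a glycine codon, because these exons show the repeat that defines the family. Capitals mark the 6 glycine codons (GG and any base) among the 18.
Col9a2, exon 5 of 32, chr4:120900893-120900946, plus strand: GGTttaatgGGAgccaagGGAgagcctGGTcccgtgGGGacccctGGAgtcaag
Col27a1, exon 4 of 61, chr4:63150029-63150082, plus strand: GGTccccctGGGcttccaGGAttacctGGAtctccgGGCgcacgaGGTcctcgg
Col11a2, exon 13 of 64, chr17:34270454-34270507, plus strand: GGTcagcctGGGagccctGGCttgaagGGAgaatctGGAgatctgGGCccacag
Col1a2, exon 8 of 52, chr6:4515481-4515534, plus strand: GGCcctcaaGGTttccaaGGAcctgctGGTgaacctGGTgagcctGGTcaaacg
*Col9a2* is a fibril-associated gene and the other 3 are fibrillar. The place of the glycine codons was the condition by which these exons were chosen, and the codons between them differ from gene to gene.

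**Figure D1:**
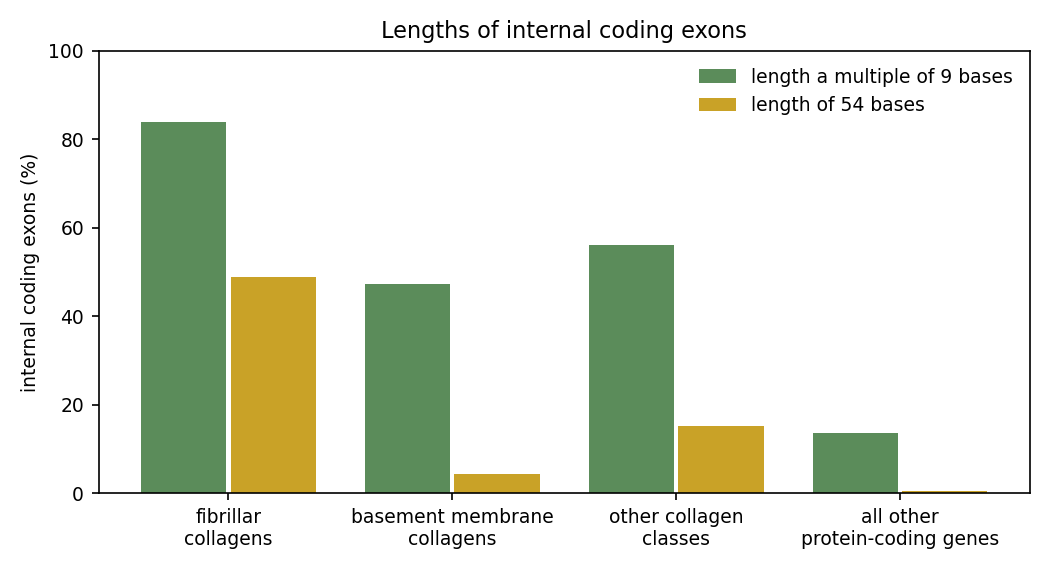
The bars give the percentage of internal coding exons whose length is a multiple of 9 bases (green) and exactly 54 bases (yellow), for 3 collagen classes and for all other protein-coding genes. Fibrillar genes reach 84.0% and 48.8%, against 13.6% and 0.428% in all other genes.

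The total count per library ranged from 1123053 to 2081747, with the lowest group mean in OVX + E2 (1123053 to 1507667). The OVX + E2 libraries also had counts on fewer genes (7427 to 9680) than the OVX + v libraries (10004 to 10694). Detection was taken as 3 counts, which make 1.44 to 2.67 CPM (counts relative to the total count of the library) depending on the library. The tissue label was met by its markers, with a count in at least 1 library on 11 of 11 hair cell genes and 10 of 10 genes of supporting cells and otoconia. Some were sparse, with counts on *Cdh23* in 7 libraries, *Oc90* in 8 and *Otop1* in 10. *Otog*, at 2508 CPM over the 20 libraries, was far above the rest of its list. Markers of neighbouring tissue were uneven between libraries. The sum over 6 leptomeninges markers, nearly all of it *Ptgds*, was 86306 CPM in replicate 1 and 81773 CPM in replicate 16, and 35180 to 58495 CPM in the others. *Ptgds* also differed between groups, with a mean of 50394 CPM in sham + v, 51488 CPM in OVX + v, 41872 CPM in OVX + E2 and 55517 CPM in OVX + RAL. It was lower in OVX + E2 than in OVX + v and in OVX + RAL at an adjusted p under 0.05 (edgeR). Because the reads come from the 3′ ends of transcripts, CPM in these libraries is not expected to grow with transcript length. The levels of different genes are therefore set side by side in CPM without a length correction. No molecular identifiers were used, so several reads may be copies of the same transcript end.

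In the utricle the collagen genes took 0.128% to 0.262% of the counts of a library, 60828 counts in all. A count was found for 38 of the 44 genes in at least 1 library, and for 8 in all 20. The 6 genes without any count were *Col24a1*, *Col19a1*, *Col28a1*, *Col6a4*, *Col6a5* and *Col6a6*. Fibrillar genes made 52.6% of the collagen counts, basement membrane genes 4.67% and the other classes 42.8%. The cartilage set of types II, IX and XI alone made 43.5%, and types I, III and V 18.7%.

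Over the 20 libraries of the 4 groups together, the gene with the highest mean level was *Col9a2* (a chain of type IX, chromosome 4), with 299 ± 102 CPM (SD, n = 20) and 127 to 453 CPM among the libraries. Close to it was *Col27a1* (chr4:63132241-63253228, a fibrillar collagen of cartilage), with 264 ± 130 CPM. *Col11a2*, a chain of type XI, had 214 ± 99.9 CPM, and *Col1a2*, the second chain of type I, had 211 ± 98.4 CPM. These means differ by less than the SD between libraries, and their order depends on the group. *Col27a1* came first in OVX + v (434 CPM, with 320 CPM for *Col9a2*), and *Col9a2* in the other 3 groups (267 to 325 CPM). A lower tier held *Col11a1* (94.8 ± 46.4 CPM), *Col9a1* (83.6 ± 55.7 CPM), *Col8a1* of the short-chain class (70.3 ± 32.7 CPM), *Col15a1* of the multiplexins (67.8 ± 66.0 CPM), *Col9a3* (60.4 ± 45.1 CPM) and *Col1a1* (55.7 ± 52.3 CPM), again with neighbours within their SD. *Col2a1*, the chain of type II collagen, had 38.05 ± 30.5 CPM. Among all genes with a count, *Col9a2* stood at the 97.2 percentile of mean CPM and *Col2a1* at the 70.1 percentile.

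The members of lower level complete the classes. In the fibril-associated class *Col14a1* had 55.4 ± 60.6 CPM over the 20 libraries and *Col16a1* 17.3 ± 18.8 CPM, while *Col12a1* had 5 counts in 3 libraries and *Col22a1* 2 counts in 2. *Col18a1*, the multiplexin from which endostatin is cut, had 48.5 ± 47.6 CPM. Among the type IV chains *Col4a1* had 42.5 ± 31.3 CPM, *Col4a2* 18.2 ± 26.9 CPM and *Col4a4* 16.6 ± 21.6 CPM. Of the fibrillar chains of loose connective tissue, *Col3a1* had 26.2 ± 36.5 CPM, *Col5a2* 16.01 ± 17.1 CPM and *Col5a1* 14.7 ± 21.8 CPM. In the short-chain and anchoring class *Col8a2* had 25.6 ± 23.4 CPM and *Col7a1*, the collagen of anchoring fibrils, 3.12 ± 7.41 CPM. The transmembrane collagens were led by *Col23a1* (11.97 ± 23.2 CPM, 7 libraries with a count) and *Col25a1* (9.72 ± 16.5 CPM, 7 libraries), followed by *Col13a1* (4.38 ± 13.1 CPM, 5 libraries). *Col26a1* had 3.89 ± 9.47 CPM with a count in 5 libraries. For most of these genes the SD exceeded the mean, so their order is not separated.

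**Figure D2:**
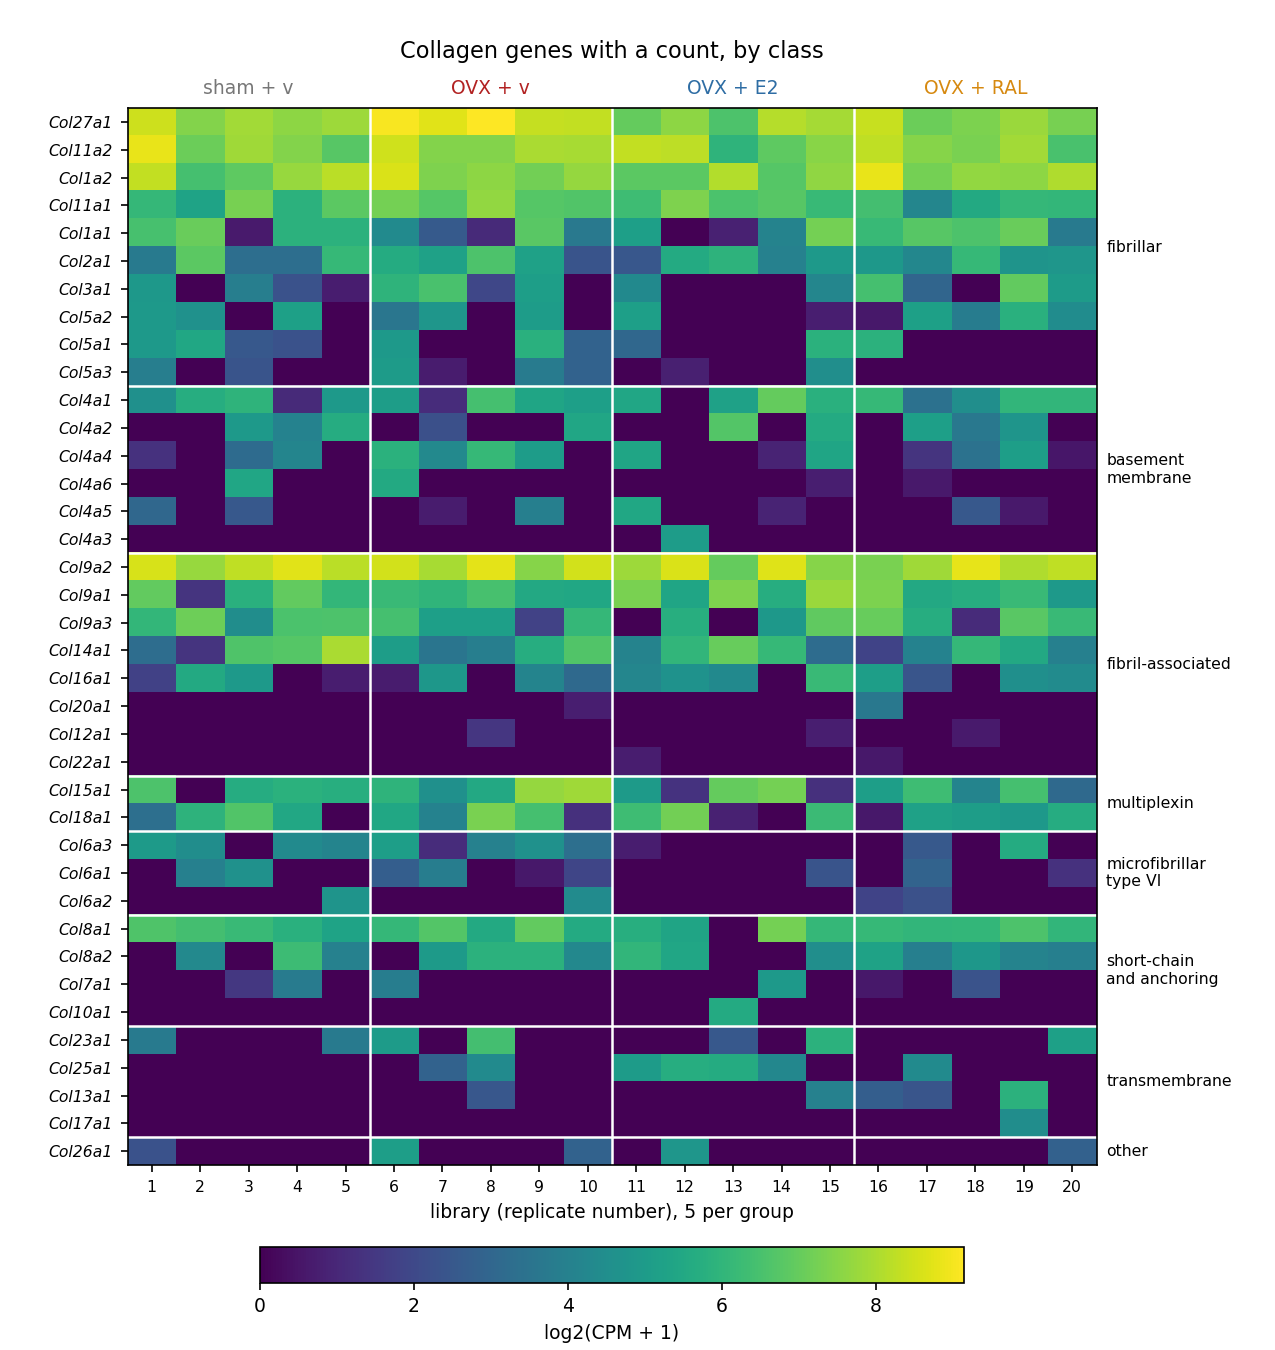
The heat map gives log2(CPM + 1) of the 38 collagen genes with a count (rows, by class) in the 20 libraries (columns, by group). *Col9a2*, *Col27a1*, *Col11a2* and *Col1a2* are bright in every library, and 28 of the 38 genes have both a library at 0 and a library with at least 20 counts.

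Chains that assemble into the same molecule were counted at unequal levels. *Col1a2* had more counts than *Col1a1* in 19 of 20 libraries (7183 and 1986 counts in all), *Col9a2* more than *Col9a1* in 17 and more than *Col9a3* in 20, and *Col11a2* more than *Col11a1* in 17. The type IV genes lie in head-to-head pairs. *Col4a1* and *Col4a2*, the chains of the general basement membrane network, overlap by 22 bases at their 5′ ends on chromosome 8 (chr8:11248423-11362826, minus strand, and chr8:11362805-11499287, plus strand). They had 1407 and 551 counts, and both reached 3 counts in 8 libraries, only *Col4a1* in 9 and only *Col4a2* in 2. *Col4a3* and *Col4a4*, chains of specialized basement membranes, lie 71 bases apart on chromosome 1, with 43 and 563 counts, and no library had 3 counts of both. *Col4a5* and *Col4a6*, 1308 bases apart on chromosome X, had 127 and 147 counts and shared 1 library. The type VI chains *Col6a1* and *Col6a2*, which assemble with *Col6a3*, had 125 and 80 counts and shared 2 libraries. Apart from *Col4a1* and *Col4a2*, these neighbouring genes reached 3 counts together in at most 2 of 20 libraries at this depth.

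The spread within groups was large, as it was for other genes. A library at 0 and another with at least 20 counts were found for 73.7% of the 38 collagen genes with a count, and for 70.4% of all 15803 genes with a count. The median within-group coefficient of variation was 124% for the collagen genes and 126% for all genes. In 8 collagen genes over 50% of the counts came from 1 library. *Col10a1* (59 counts), *Col4a3* (43 counts) and *Col17a1* (41 counts) were each counted in 1 library alone, and 23 of the 24 counts of *Col20a1* came from replicate 16. The 3′ ends of *Col9a3*, *Col10a1* and *Col18a1* lie within 1000 bases of *Tcfl5*, *Nt5dc1* and *Slc19a1*, and whether the counting used strand is not given in the sources used here, so that their counts are less certain.

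Across the 4 groups no collagen gene passed the threshold of 0.05 after adjustment over all genes (edgeR's quasi-likelihood F test, 36 of the 44 genes tested). The same test called 0.141% of 14870 genes. At an unadjusted p under 0.05 there were 6 collagen genes (16.7%), beside 16.3% of all genes. The smallest adjusted p was 0.134, for *Col27a1*, *Col10a1*, *Col4a3* and *Col17a1*, and of these *Col10a1*, *Col4a3* and *Col17a1* rest on 1 library each. DESeq2 called none either, with 1 at an unadjusted p under 0.05. In each comparison below, genes with at least 10 counts over the fitted libraries were tested, and a gene that reached this only through 1 group had to differ, so the counts of tested genes are no support for a difference.

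*Col27a1* was the collagen gene with the smallest p-value in all 3 comparisons with the OVX + v group. In the OVX + v libraries it had 529, 431, 569, 323 and 317 CPM, with a mean of 434 ± 115 CPM (SD, n = 5). In the sham + v libraries it had 353, 174, 235, 193 and 224 CPM (236 ± 69.7). In the OVX + E2 libraries it had 126, 192, 96.2, 282 and 238 CPM (187 ± 77.0), and in the OVX + RAL libraries 336, 135, 162, 217 and 155 CPM (201 ± 81.6). All 5 OVX + E2 libraries, 4 of 5 sham + v libraries and 4 of 5 OVX + RAL libraries lay below the lowest OVX + v library. The log2 fold change against OVX + v was -0.88 ± 0.311 (SE) for sham + v (unadjusted p = 0.00475, adjusted p = 0.363, edgeR). It was -1.21 ± 0.365 for OVX + E2 (unadjusted p = 0.000875, adjusted p = 0.351, edgeR) and -1.11 ± 0.306 for OVX + RAL (unadjusted p = 0.000348, adjusted p = 0.402, edgeR). The 3 comparisons share the same OVX + v libraries and are not independent. None passed the threshold over all genes. Without replicate 16, the edgeR fit of OVX + RAL gave an adjusted p of 0.0121 and a log2 fold change of -1.38, and over the 19 alternatives of that comparison the adjusted p ranged from 0.0121 to 1.0. Other measures of cartilage and fibrocytes are given beside this. The sum over 8 chondrocyte markers was 678 to 1030 CPM in OVX + v, 362 to 720 CPM in sham + v, 418 to 707 CPM in OVX + E2 and 532 to 905 CPM in OVX + RAL. It was made mainly of *Sox9* and *Cnmd*, with *Matn1* and *Ihh* at 0 in every library. Values lower than in OVX + v were found for 4 of 4 markers tested in sham + v, 4 of 5 in OVX + E2 and 4 of 5 in OVX + RAL. None of this list had an unadjusted p under 0.05 in sham + v against OVX + v (edgeR). Against OVX + v only *Matn3* in OVX + E2 and *Hapln1* in OVX + RAL did, both higher and each counted in 1 library. The sum over 5 inner ear fibrocyte markers was 7301 to 10598 CPM in OVX + v, 5869 to 11775 CPM in sham + v, 7018 to 10895 CPM in OVX + E2 and 6067 to 14328 CPM in OVX + RAL. Of these 5 markers, 5 had lower values in sham + v than in OVX + v (*Slc4a11*, *Coch* and *Pou3f4* with an unadjusted p under 0.05, edgeR). In OVX + E2, 4 had lower values than in OVX + v (*Slc4a11* and *Coch* with an unadjusted p under 0.05). In OVX + RAL, 3 had higher and 2 lower values than in OVX + v. There *Slc4a11* was higher at an unadjusted p under 0.05 (462 CPM, and 192 CPM in OVX + v). None passed the adjusted threshold in these 3 comparisons. The cartilage chains of types II, IX and XI summed to 845 ± 209 CPM in OVX + v, 834 ± 180 CPM in sham + v, 764 ± 177 CPM in OVX + E2 and 714 ± 140 CPM in OVX + RAL. The part of these cell types in the level of *Col27a1* was not tested. In whole tissue, fewer cells of a type and less RNA per cell cannot be told apart.

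**Figure D3:**
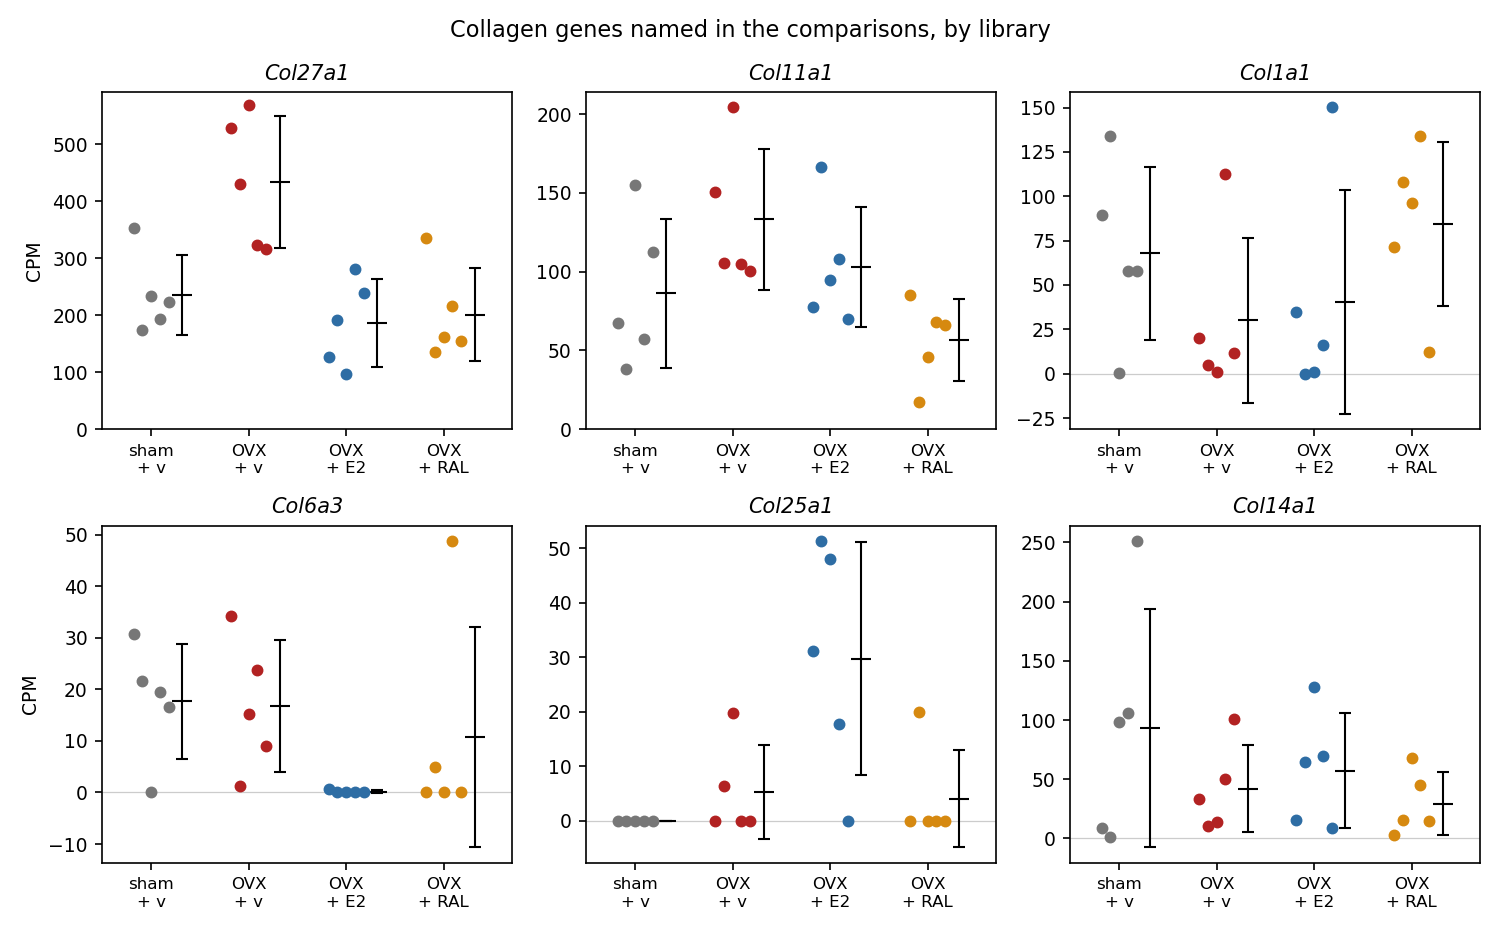
Each point is the CPM of 1 library and the black bars give the mean ± SD of 5 libraries per group, for 6 collagen genes, each panel with its own linear axis. *Col27a1* has its highest values in OVX + v, where all 5 libraries lie at 317 CPM or above, and *Col6a3* is at 0 in 4 of 5 OVX + E2 libraries.

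The summed levels of the classes overlapped between the groups. The fibrillar genes summed to 1183 ± 278 CPM in OVX + v (901 to 1629), 910 ± 284 CPM in sham + v (749 to 1411), 751 ± 151 CPM in OVX + E2 (584 to 967) and 912 ± 336 CPM in OVX + RAL (650 to 1438). Without *Col27a1* the means of the fibrillar sum were 750 CPM in OVX + v, 674 CPM in sham + v, 564 CPM in OVX + E2 and 711 CPM in OVX + RAL. The basement membrane genes summed to 96.1 ± 51.8, 68.4 ± 47.3, 114 ± 46.2 and 70.5 ± 31.8 CPM in the same order of groups, and the other classes to 830 ± 161, 816 ± 151, 795 ± 117 and 689 ± 116 CPM. In each of these 3 classes the group ranges overlapped, and the sums were not tested.

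**Figure D4:**
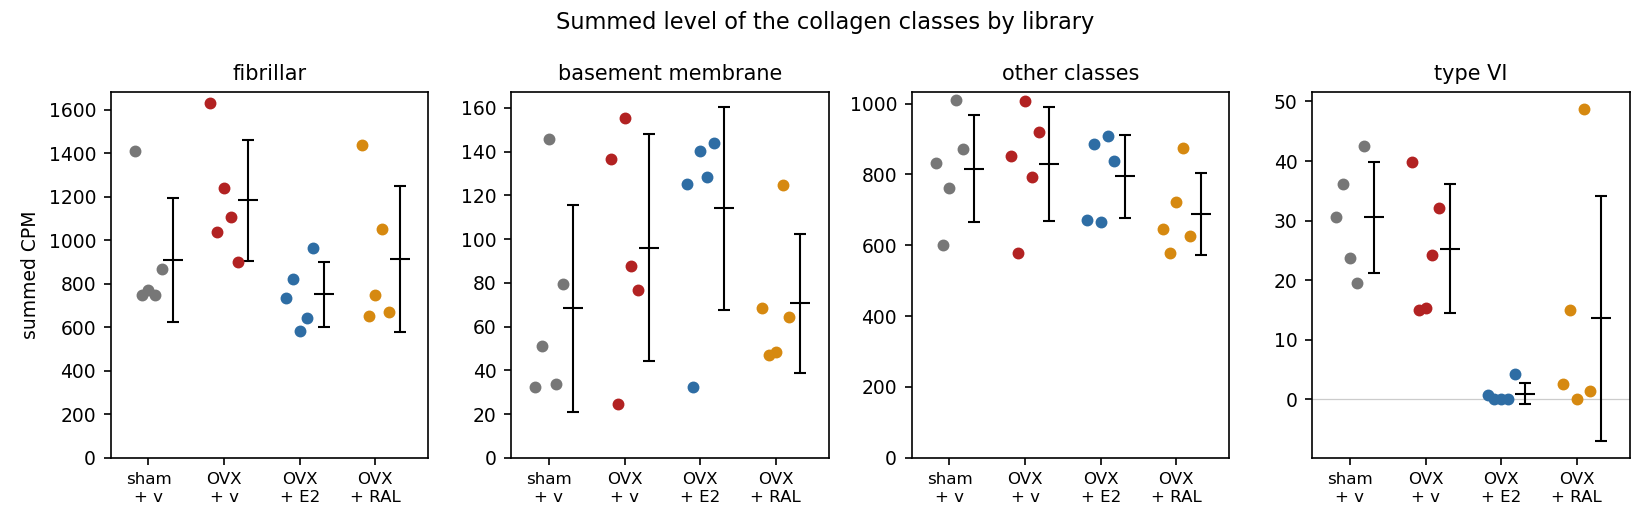
Each point is the CPM summed over a class in 1 library, with the mean ± SD of 5 libraries in black, for the fibrillar, basement membrane and other classes and for type VI, a part of the other classes. The 5 OVX + E2 libraries have at most 4.21 CPM of type VI, and the OVX + v libraries 15.1 to 39.9 CPM.

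The comparison of sham + v with OVX + v, which addresses the effect of ovariectomy alone, tested 31 of the 44 collagen genes. None passed an adjusted p of 0.05 (edgeR), where 0.0145% of all 13825 genes did. At an unadjusted p under 0.05 there were 2 genes, both lower in sham + v (6.45%, beside 12.5% of all genes). DESeq2 and limma called none. The median log2 fold change was -0.15 over the collagen genes tested and -0.02 over all genes, and with 1 library left out the former ranged from -0.29 (without replicate 10) to 0.03 (without replicate 6), so that its direction rests on single libraries. No collagen gene had groups without overlap, which 0.499% of all genes had. After *Col27a1*, the smallest p among genes lower in sham + v was that of *Col25a1*, a transmembrane collagen best known from brain. It had no count in any sham + v library and 6.27 and 19.8 CPM in 2 OVX + v libraries. Against the floor of 3 counts its mean was at least 3.08-fold lower in sham + v (unadjusted p = 0.0397, adjusted p = 0.363, edgeR). Of the genes with higher values in sham + v, *Col14a1*, a fibril-associated collagen of connective tissue, had 93.3 ± 101 CPM in sham + v (8.77, 1.57, 98.4, 106 and 251) and 41.9 ± 36.7 CPM in OVX + v (33.0, 10.7, 14.2, 50.5 and 101). Its log2 fold change was 1.15 ± 0.718 (SE, adjusted p = 0.721, edgeR), and the groups overlapped. *Col1a1*, the first chain of type I, had 67.9 ± 48.9 CPM in sham + v and 30.1 ± 46.6 CPM in OVX + v (log2 fold change 1.17 ± 0.902, adjusted p = 0.965, edgeR), while its partner *Col1a2* had 207 ± 104 and 221 ± 98.4 CPM.

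The comparison of OVX + E2 with OVX + v, which addresses estradiol replacement, tested 34 of the 44 collagen genes. None passed an adjusted p of 0.05 (edgeR), where 0.0584% of all 13695 genes did. At an unadjusted p under 0.05 there were 5 genes, 2 higher and 3 lower in OVX + E2 (14.7%, beside 13.9% of all genes). DESeq2 and limma called none. The median log2 fold change was -0.35 over the collagen genes tested and -0.06 over all genes. With TMM factors these medians were -0.46 and -0.17, and with limma they were -0.54 and -0.46 at a pseudocount of 1 and -0.77 and -0.74 at 0.1, so that the distance from all genes depended on the tool. With 1 library left out the median of the collagen genes ranged from -0.50 (without replicate 12) to -0.09 (without replicate 13), where that of all genes was -0.08. The groups did not overlap for 2 collagen genes, *Col27a1* and *Col6a3*, both lower in OVX + E2, beside 0.832% of all genes.

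Type VI collagen, which forms beaded microfibrils around cells, was nearly uncounted in the OVX + E2 group. The 3 type VI chains with a count summed to 39.9, 15.1, 15.3, 24.3 and 32.05 CPM in OVX + v and to 30.7, 36.2, 23.7, 19.6 and 42.4 CPM in sham + v. In OVX + E2 the sums were 0.663, 0, 0, 0 and 4.21 CPM, from 7 counts in all, and in OVX + RAL 2.57, 15.1, 0, 48.8 and 1.44 CPM. The OVX + E2 libraries thus lay below all libraries of OVX + v and sham + v, and the OVX + RAL libraries spread over the whole range. Most of this was *Col6a3*, with 34.3, 1.25, 15.3, 23.8 and 9.06 CPM in OVX + v and 1 count in 1 of 5 libraries in OVX + E2 (0.663 CPM). The lowest OVX + v library thus lay above the highest OVX + E2 library, by a margin near 1 count. Over the summed libraries that is 145 counts against 1, so that *Col6a3* entered the fit through the OVX + v libraries alone. The fit gave *Col6a3* an unadjusted p of 0.0459 and an adjusted p of 0.351 (edgeR). *Col6a2* had 20.2 CPM in 1 OVX + v library and no count in OVX + E2. Against the floor of 3 counts its mean was at least 1.77-fold below that of OVX + v, which rests on that library (unadjusted p = 0.0440, adjusted p = 0.351, edgeR). *Col6a1* had 36 counts in OVX + v and 6 in OVX + E2 (adjusted p = 1.0, edgeR). The OVX + E2 group had the lowest mean total count and the lowest mean number of genes with a count, and in its libraries 3 counts make 1.99 to 2.67 CPM. Markers of fibroblasts, which are known to make type VI collagen, summed to 575 to 1144 CPM in OVX + E2, 633 to 1103 CPM in OVX + v and 444 to 1414 CPM in sham + v. All 8 had a count over the 20 libraries, but *Dpt* and *Postn* were counted only in OVX + RAL. *Dcn* makes most of this sum (749 CPM over the 20 libraries), and of the 6 markers tested in OVX + E2 against OVX + v, 3 had higher and 3 had lower values in OVX + E2. *Lum* had 3.12 CPM in OVX + E2 and 20.6 CPM in OVX + v and *Thy1* 0 and 3.64 CPM, while *Pdgfra* had 114 and 94.9 CPM and *Cd34* 12.3 and 0 CPM. The part of depth and of fibroblasts in the type VI values was not tested.

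The genes with higher values in OVX + E2 and the smallest p-values were *Col10a1*, the collagen of hypertrophic cartilage, and *Col4a3*. Each came from 1 library, *Col10a1* with 59 counts (47.3 CPM) in replicate 13 and *Col4a3* with 43 counts (32.5 CPM) in replicate 12, and neither had a count in OVX + v. Against the floor of 3 counts their means were at least 5.24-fold and 3.60-fold higher in OVX + E2 (adjusted p = 0.351 for both, edgeR). These bounds rest on that 1 library each, and the other OVX + E2 libraries were at 0. *Col25a1* had 31.2, 51.4, 48.1, 17.8 and 0 CPM in OVX + E2 and at most 19.8 CPM in the OVX + v libraries, with a log2 fold change of 2.49 ± 2.09 (SE, adjusted p = 0.934, edgeR). Of the other abundant cartilage chains, *Col9a2* had 267 ± 130 CPM in OVX + E2 and 320 ± 102 CPM in OVX + v, and *Col11a2* 196 ± 113 and 240 ± 74.1 CPM (adjusted p = 1.0 for both, edgeR). *Col9a1* had 126 ± 77.2 CPM in OVX + E2 and 62.2 ± 19.5 CPM in OVX + v, with 3 of 5 OVX + E2 libraries above all OVX + v libraries and 1 below them (adjusted p = 0.749, edgeR).

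The comparison of OVX + RAL with OVX + v, which addresses the selective estrogen receptor modulator raloxifene, tested 34 of the 44 collagen genes. None passed an adjusted p of 0.05 (edgeR), where 0.0286% of all 14002 genes did. At an unadjusted p under 0.05 there were 6 genes, 2 higher and 4 lower in OVX + RAL (17.6%, beside 12.1% of all genes). DESeq2 and limma called none, and without replicate 16 edgeR called 1, *Col27a1*. The median log2 fold change was -0.46 over the collagen genes tested and -0.03 over all genes. It was -0.25 without replicate 6, -0.24 with filterByExpr, and -0.19 and -0.11 with limma at pseudocounts of 1 and 0.1. The groups did not overlap for *Col11a1*, beside 0.578% of all genes.

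*Col11a1*, a chain of the type XI collagen that controls the width of cartilage fibrils, had 85.4, 17.2, 45.8, 68.2 and 66.3 CPM in OVX + RAL and 151, 105.4, 205, 105.001 and 100.3 CPM in OVX + v. The log2 fold change was -1.23 ± 0.508 (SE, unadjusted p = 0.0158, adjusted p = 0.402, edgeR). Its partner *Col11a2* had 195 ± 83.6 CPM in OVX + RAL and 240 ± 74.1 CPM in OVX + v, with overlap (log2 fold change -0.30 ± 0.347). *Col1a1* had 71.5, 108, 96.3, 134 and 12.5 CPM in OVX + RAL and 19.9, 5.02, 1.13, 112 and 11.8 CPM in OVX + v. Its log2 fold change was 1.48 ± 0.723 (SE, unadjusted p = 0.0412, adjusted p = 0.402, edgeR), and the groups overlapped, with the OVX + v libraries of 19.9 and 112 CPM inside the OVX + RAL range. *Col1a2* had 254 ± 121 and 221 ± 98.4 CPM (log2 fold change 0.20 ± 0.337). *Col15a1*, a multiplexin of basement membrane zones, had 44.8 ± 36.2 CPM in OVX + RAL and 113 ± 97.6 CPM in OVX + v (log2 fold change -1.34 ± 0.579, adjusted p = 0.402, edgeR). *Col5a3*, a type V chain chosen after its values were seen, had no count in OVX + RAL and 87 counts in OVX + v, 51 of them in replicate 6 (31.8, 0.627, 0, 12.9 and 6.27 CPM, adjusted p = 0.402, edgeR). *Col17a1*, the transmembrane collagen of hemidesmosomes, was counted only in replicate 19 (21.5 CPM), which makes it at least 2.38-fold higher in OVX + RAL (adjusted p = 0.402, edgeR).

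**Figure D5:**
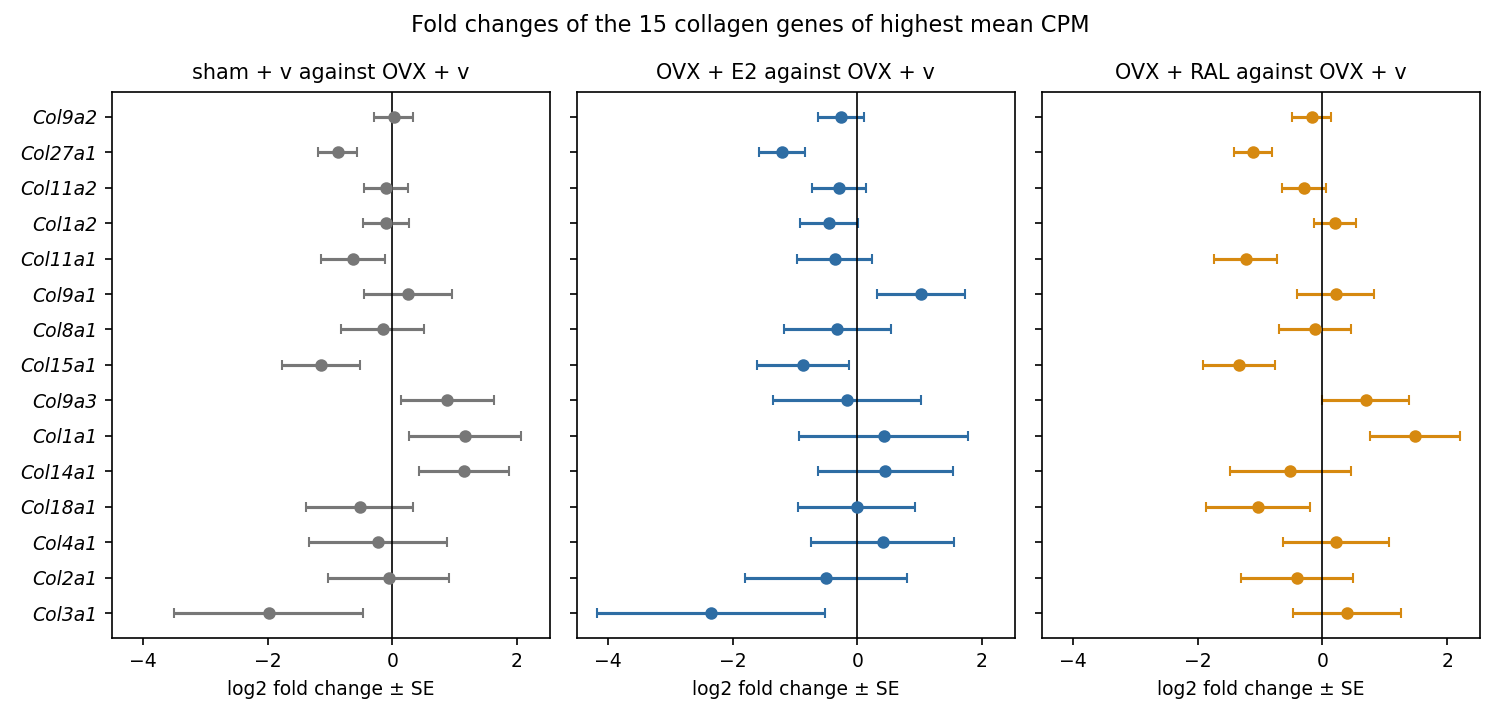
The points give the log2 fold change against OVX + v and the bars ± 1 SE from edgeR, for the 15 collagen genes with the highest mean CPM (top to bottom), in the 3 comparisons. *Col27a1* lies at -0.88, -1.21 and -1.11 with SE of 0.306 to 0.365, and *Col11a1* at -1.23 in the OVX + RAL panel.

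The comparison of OVX + E2 with OVX + RAL set the agents side by side at the doses given above, which differ and are not matched. It tested 35 of the 44 collagen genes, and none passed an adjusted p of 0.05 (edgeR), where 0.0727% of all 13753 genes did. At an unadjusted p under 0.05 there were 5 genes, 3 higher and 2 lower in OVX + E2 (14.3%, beside 14.1% of all genes), of which *Col10a1*, *Col4a3*, *Col17a1* and *Col20a1* rest on the single libraries named above. The fifth, *Col5a3*, had 31 of its 32 OVX + E2 counts in replicate 15 and none in OVX + RAL. DESeq2 and limma called none. For *Col27a1* the fit gave -0.10 ± 0.474 on the log2 scale (SE, adjusted p = 1.0, edgeR). *Col6a3* had 102 counts in OVX + RAL, of which replicate 19 gave 48.8 CPM, and 1 count in OVX + E2 (adjusted p = 0.531, edgeR). The median log2 fold change was 0.19 over the collagen genes tested and -0.01 over all genes, and with TMM factors 0.03 and -0.16. With 1 library left out the median of the collagen genes ranged from -0.06 (without replicate 12) to 0.48 (without replicate 16), and limma gave -0.17 and -0.40, so that its direction was not stable. No collagen gene had groups without overlap, which 0.909% of all genes had.

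The genes that make, bind and break down collagen were taken as 79 genes in 6 lists. None passed an adjusted p of 0.05 in any of the 4 comparisons (edgeR, 70 to 72 tested). At an unadjusted p under 0.05 there were 7 in sham + v against OVX + v (2 higher, 5 lower), 12 in OVX + E2 against OVX + v (3 higher, 9 lower), 7 in OVX + RAL against OVX + v (3 higher, 4 lower) and 8 in OVX + E2 against OVX + RAL (1 higher, 7 lower). The 12 genes of OVX + E2 against OVX + v are 17.1% of 70 tested, beside 13.9% of all genes, and in the other 3 comparisons the share among those tested lay below that of all genes.

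For modification and folding, all 20 genes had a count, and the summed level was 2759 ± 284 CPM in sham + v, 2926 ± 238 CPM in OVX + v, 2691 ± 302 CPM in OVX + E2 and 2936 ± 114 CPM in OVX + RAL. The highest was *Sparc*, a collagen-binding matrix protein, at 1502 CPM over the 20 libraries, then *Mia3*, which loads collagen for export from the endoplasmic reticulum (258 CPM), and the galactosyltransferase *Colgalt2* (162 CPM). Processing and cross-linking was led by the transglutaminase *Tgm2* (84.5 CPM), the procollagen peptidase enhancer *Pcolce* (71.7 CPM) and the lysyl oxidase *Loxl1* (41.8 CPM). Collagen receptors were led by the integrin chain *Itgb1* (301 CPM) and the discoidin domain receptors *Ddr1* (144 CPM) and *Ddr2* (110 CPM).

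Among genes of breakdown, the inhibitors *Timp2* and *Timp3* had 1254 and 1196 CPM. The membrane-bound collagenase *Mmp14* had 252 ± 50.0 CPM in OVX + v, 172 ± 50.9 CPM in sham + v, 107 ± 69.6 CPM in OVX + E2 and 139 ± 81.3 CPM in OVX + RAL. Its log2 fold change against OVX + v was -1.23 ± 0.482 for OVX + E2 (unadjusted p = 0.0105, adjusted p = 0.351, edgeR) and -0.86 ± 0.365 for OVX + RAL (unadjusted p = 0.0190, adjusted p = 0.402, edgeR). Of the small leucine-rich proteoglycans, which coat collagen fibrils, *Dcn* had 749 CPM, *Chad* 160 CPM and *Bgn* 125 CPM. *Chad*, a cartilage proteoglycan, had 219 ± 37.1 CPM in OVX + v and 98.9 ± 58.7 CPM in OVX + E2 (log2 fold change -1.15 ± 0.510, unadjusted p = 0.0244, adjusted p = 0.351, edgeR), and *Dcn* and *Bgn* had log2 fold changes of -0.09 ± 0.244 and 0.70 ± 0.582 there. In that comparison 9 of the 10 proteoglycan genes tested had lower values in OVX + E2 (median log2 fold change -1.30), as had 7196 of all 13695 genes. Those with an unadjusted p under 0.05 were *Chad*, *Prelp* (16.4 CPM in OVX + E2 and 94.1 CPM in OVX + v) and *Aspn* (0 and 4.45 CPM). Of 10 tested, 7 had lower values than OVX + v in sham + v and 7 in OVX + RAL (medians -0.40 and -0.41). The basement membrane partners of type IV collagen were led by the laminin chains *Lamb2* (145 CPM), *Lama2* (114 CPM) and *Lamc1* (70.8 CPM), and none of 14 tested had an unadjusted p under 0.05 in any comparison.

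RefSeq promoter windows on GRCm38.p6, from 250 bases before to 50 after the start, were at hand for 35 of the 44 genes (38 windows). The full palindrome of the estrogen response element was searched on both strands and stood in 0 of the 38 windows and in 0.07% of all 32851 windows; no match says only that these letters are not in these windows. The GC box GGGCGG stood in 60.5% of the collagen windows, *Col27a1* included, and in 35.7% of all windows. The other motifs searched were CCAAT (34.2% of collagen windows and 37.4% of all windows), TATAAA (13.2% and 13.6%) and the SOX-type motif ACAAAG (13.2% and 18.7%).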

How the data were processed

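RNA-seq of the utricle was analysed in 20 libraries, grouped by the treatment label. The authors trimmed the reads, mapped them to GRCm39 with the Ensembl 105 annotation and counted them in CLC Genomics Workbench, and the version, the use of strand and the handling of reads with several matches are not given in the sources used here. The deposited total counts are raw read counts per gene without normalization. The authors' deposited normalized columns and their fold changes and p-values were not used. No molecular identifiers were used, so floors cover counting error only.

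CPM was computed from the total count of each library. Comparisons used edgeR 4.0.16 (estimateDisp, glmQLFit and glmQLFTest) on all genes with at least 10 counts over the fitted libraries, with the total count as library size, Benjamini-Hochberg adjustment over all genes and a threshold of 0.05. The SE was taken as the size of the log2 fold change over the root of the F statistic. A fold against a group at 0 is a bound on the ratio of the group means, computed with 3 counts per library. It does not cover the spread between libraries. R 4.3.3, limma 3.58.1, DESeq2 1.42.0, Python 3.11.15, pandas 2.3.3, scipy 1.17.1 and matplotlib 3.10.9 were used. The edgeR and limma fits of OVX + E2 against OVX + v were also run on simulated counts with known changes, and the outcome is not given here. Of 40 pairs of libraries within groups, 0 had identical counts.

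The collagen genes, classes and lists were chosen with earlier results of these data known. Genes were named by a rule: the 10 with the highest mean CPM, the 3 highest of each class, in each comparison those past the threshold and the 2 with the smallest p in each direction, the paired chains, and in each pathway list those past the threshold and the 3 highest. Further collagen genes were named outside this rule, after their values were seen, to account for the members of each class, as were pathway genes and markers set beside a result. Alternatives were TMM factors, DESeq2, no filter, filterByExpr, limma on log2(CPM + 1) and log2(CPM + 0.1), robust dispersion, a joint fit of the 4 groups, and leaving out single libraries.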

Additional observations from a re-analysis of the deposited data

Results flagged for a closer look

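In 4 of 40 groups of 5 libraries (10 measures: the 3 class sums and, of the collagen genes named for the highest levels or for the smallest p-values of a comparison, the 7 with a count in every library), 1 library lay far from the others by Dixon's ratio at the 95% level. Chance alone gives about 1 such group in 20. *Col1a2* had 391.8 CPM in OVX + v replicate 6, and 147 to 209 CPM in the other OVX + v libraries. The fibrillar sum was 1411 CPM in sham + v replicate 1, and 749 to 870 CPM in the other sham + v libraries. The basement membrane sum was 32.5 CPM in OVX + E2 replicate 12 beside 125 to 144 CPM in the rest of that group, and 124.9 CPM in OVX + RAL replicate 19 beside 46.9 to 68.4 CPM. The other 10 of those genes had a library at 0 and were not examined in this way.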

How the results depend on the processing

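The number of collagen genes past the threshold was 0 under all alternatives run for the 5 tests, except in OVX + RAL against OVX + v without replicate 16, where it was 1 (range 0 to 1 with each library left out); the cause was not tested. That gene was *Col27a1*, at a log2 fold change of -1.38. In the other comparisons its adjusted p ranged over the alternatives from 0.226 to 1.0 (sham + v), from 0.0996 to 0.780 (OVX + E2 against OVX + v) and from 0.947 to 1.0 (OVX + E2 against OVX + RAL). The fold change of *Col27a1* between OVX + E2 and OVX + RAL, which is near 0, ranged from -0.30 to 0.28. The fold changes of the genes named for the smallest p-values in each comparison kept their direction in 285 refits that stayed on the same side of the threshold and in the 1 given above. Where 1 group had no count of the gene, this was fixed in advance, because the direction could not reverse. That held for *Col25a1* in sham + v against OVX + v and for *Col6a2*, *Col10a1* and *Col4a3* in OVX + E2 against OVX + v. It also held for *Col17a1* in OVX + RAL against OVX + v, and for *Col17a1*, *Col20a1*, *Col10a1* and *Col4a3* in OVX + E2 against OVX + RAL. For *Col10a1*, *Col4a3*, *Col17a1*, *Col20a1* and *Col6a2*, leaving out the library that holds their counts left too few to test, so no refit without it exists and their direction was not checked. The number of all genes past the threshold depended on the tool: in the 5 tests (sham + v, OVX + E2 and OVX + RAL against OVX + v, OVX + E2 against OVX + RAL, and the 4 groups) it was 2, 8, 4, 10 and 21 with edgeR, 1, 35, 4, 42 and 2 with DESeq2, 0, 4, 0, 6 and 5 with robust dispersion, and 0, 1, 0, 0 and 1 with filterByExpr. The 168 recomputed class ratios moved by less than 1 pooled SD of the log2 sums between libraries. That SD was 0.224 to 0.989 and in most cases larger than the ratio itself. Such a margin would also pass a change of sign, so it does not show that the ratios are stable. Leaving out libraries 1, 6, 11 and 16 together, an alternative chosen after seeing the data, left 0 collagen genes past the threshold in the 5 tests. No paired analysis was possible because the replicate numbers run from 1 to 20 and no number is shared between groups. With 5 libraries a group and a median within-group coefficient of variation of 124%, genes near the floor of 1.44 to 2.67 CPM could not be compared.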

Other observations

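The 4 libraries with the lowest replicate number of their group (1, 6, 11 and 16) stood apart in markers of neighbouring tissue, a feature noticed after the values were seen. The leptomeninges sum was the highest of its group in each of them, with 86306, 58374, 54592 and 81773 CPM. Over 7 skeletal muscle markers, replicates 1, 6, 11 and 16 had 99.4, 156, 31.2 and 477 CPM, again each the highest of its group. The fibrillar collagen sum was the highest of its group in replicates 1, 6 and 16 (1411, 1629 and 1438 CPM), but not in replicate 11 (736 CPM). *Col1a2* was likewise highest there, with 320, 391.8 and 458 CPM, and 113 CPM in replicate 11. The labels give no batch for these libraries, and the part of neighbouring tissue in the collagen levels was not tested. Without these 4 libraries the log2 fold change of *Col27a1* against OVX + v was -0.99 for sham + v, -1.02 for OVX + E2 and -1.29 for OVX + RAL.

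*Col25a1* was counted in 0 of 5 sham + v, 2 of 5 OVX + v, 4 of 5 OVX + E2 and 1 of 5 OVX + RAL libraries, with 0, 45, 195 and 37 counts. *Col4a4* had 5.31 ± 7.27 CPM in sham + v, 35.5 ± 28.0 CPM in OVX + v, 16.5 ± 22.2 CPM in OVX + E2 and 9.24 ± 14.5 CPM in OVX + RAL, and its adjusted p against OVX + v was 0.733 for sham + v, 1.0 for OVX + E2 and 0.902 for OVX + RAL (edgeR).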
